A study of Mus musculus with 6 samples.

Results

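Aminoacyl-tRNA synthetases are the enzymes that load each transfer RNA with its amino acid. Their genes were taken from the table by symbol: the letter of an amino acid followed by ars, with or without a final 1 or 2, together with Eprs, Farsa and Farsb. The rule found 36 of 17912 genes. A final 2 marks the mitochondrial enzymes, 16 genes, and the other 20 were counted as cytosolic. Fars2 is not analysed here. All 36 passed the filter on low values (a mean of at least 10), so every member in the table was tested.

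By their labels the cells are embryonic stem cells (ESCs) of the mouse, which are pluripotent cells of the early embryo, and their poly(A) RNA was sequenced in 6 libraries. The 3 controls (replicates 1, 2 and 3) have the genotype WT, and the 3 clones (numbers 5, 6 and 7) the genotype EXOSC2_KD, from a short hairpin RNA (shEXOSC2) against Exosc2, a subunit of the RNA exosome that degrades and trims RNA. Whether the controls carried a control hairpin, and whether the clones came from the same cells as the controls, is not given in the labels, so clone and hairpin cannot be told apart from each other. Separate cultures are not named for the controls either, so the spread among controls may be technical only. The spread in the other group is among 3 numbered clones, and each p-value rests on both spreads. Sex, strain and age of the source are not given in the labels.

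Reads counted in the genes of the table came to between 21107761 and 26494985 per library. Exosc2 measured 2457, 2473 and 1954 scaled counts in the controls and 1138, 997 and 981 in clones 5, 6 and 7, or 45.3% of the control mean (log2 fold change -1.14 ± 0.13 SE, limma adjusted p = 5.11e-05). An exact two-sided permutation test gave p = 0.1, and groups of this size cannot reach a smaller p. Of 12 markers of pluripotent ESCs, 11 were lower in the clones and only Pou5f1 was higher, against 38.3% and 35.2% of all tested genes. Zfp42 and Utf1 (chosen after their values were seen) had no read in any clone. Pou5f1 rose from 21045 ± 4721 to 91114 ± 2227 scaled counts. The 12 summed to between 126296 and 137638 in controls and between 93025 and 99232 in clones, and Pou5f1 made up most of the clone sum. The median log2 fold change of the 12 was -9.92. Fgf4 stood at 48.4% of its control mean and Sox2 at 23.7%. Every other marker that fell was at 4.81% (Klf2) or less, Nanog among them (9698 ± 366 in controls, 0.67 ± 0.58 in clones). Most of these markers of the labelled cell type were thus nearly absent from the clones. Of 8 tested fibroblast or feeder markers 7 were higher and 1 lower, and their summed level over all 9 was between 8880 and 10198 in controls and between 49025 and 63967 in clones. Surface epithelium markers moved both ways, 4 higher and 3 lower of 7, with summed levels of 22436 to 34862 in controls and 11973 to 15947 in clones. Krt6a had no read in any control and measured 3657 ± 636 in clones. Cdh1, which made up most of the control sum, fell from 15794 ± 3163 to 982 ± 257. Of 3 tested macrophage markers 1 was higher, Cd68 (chosen after its values were seen), and the 5 summed to between 658 and 1284 in controls and 1839 to 2264 in clones. Ptprc, the pan-leukocyte marker, was at most 13.8 in any library. In bulk RNA a change in the kinds of cells and a change in RNA per cell cannot be told apart, and the part of these markers in the results below was not tested.

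Each synthetase recognises its amino acid, activates it with ATP and joins it to the matching tRNA, so that the ribosome reads each codon as the right residue. Synthetases form a pair of structural classes with unrelated catalytic folds, class I and class II. In animal cells a set of cytosolic enzymes is held together with scaffold proteins in the multisynthetase complex, while others are free. Mitochondria translate the few proteins of their own genome with a separate set of enzymes, which are encoded in the nucleus and imported. Gars and Kars are exceptions, since each gene encodes both the cytosolic and the mitochondrial enzyme. Mitochondria make glutaminyl-tRNA by amidating glutamate on the tRNA and have no glutaminyl enzyme of their own. Several cytosolic synthetase genes are textbook targets of ATF4, the transcription factor of the amino acid response, which binds a C/EBP-ATF composite element.

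Promoter sequences are shown because the core of that element was found among the cytosolic genes and in no mitochondrial window. RefSeq windows (GRCm38.p6, 250 bases before to 50 after the start) were found for 26 of the 36 members, 13 in each set. The letters TGATGNAA, read on both strands, were present in 5 of 13 cytosolic windows and in 0 of 13 mitochondrial windows, against 4.51% of 27025 genes with a window and 2.65% of the 10980 of these that were tested. The 5 genes are Aars, Gars, Iars, Tars and Yars. The E-box CACGTG, which reads the same on both strands, was present in 4 cytosolic windows (Aars, Farsb, Iars and Tars) and in 1 mitochondrial window (Ears2), against 8.09% of all genes with a window and 11.7% of the tested ones. No match of one motif overlapped a match of the other. Capitals mark the matches to either motif, on either strand:
Aars (chr8:111033592-111033891, plus strand): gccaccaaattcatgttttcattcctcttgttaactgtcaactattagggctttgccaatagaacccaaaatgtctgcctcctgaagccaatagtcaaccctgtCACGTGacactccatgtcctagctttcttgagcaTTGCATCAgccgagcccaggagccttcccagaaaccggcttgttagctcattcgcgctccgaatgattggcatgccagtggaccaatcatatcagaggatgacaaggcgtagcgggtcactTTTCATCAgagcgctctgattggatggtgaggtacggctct
Yars (chr4:129189653-129189952, plus strand): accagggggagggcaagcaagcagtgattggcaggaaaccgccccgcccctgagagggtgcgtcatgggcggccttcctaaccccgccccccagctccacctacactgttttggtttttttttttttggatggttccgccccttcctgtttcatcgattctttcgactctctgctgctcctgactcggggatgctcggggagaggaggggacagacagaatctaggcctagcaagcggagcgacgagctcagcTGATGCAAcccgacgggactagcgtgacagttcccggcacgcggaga
Iars (chr13:49681880-49682179, plus strand): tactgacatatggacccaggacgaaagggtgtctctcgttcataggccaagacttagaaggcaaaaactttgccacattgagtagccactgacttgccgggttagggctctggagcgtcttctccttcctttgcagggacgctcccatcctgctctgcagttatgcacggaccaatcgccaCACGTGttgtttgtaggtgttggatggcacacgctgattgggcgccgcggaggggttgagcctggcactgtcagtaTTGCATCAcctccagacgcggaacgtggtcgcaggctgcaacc
Tars (chr15:11399609-11399908, minus strand): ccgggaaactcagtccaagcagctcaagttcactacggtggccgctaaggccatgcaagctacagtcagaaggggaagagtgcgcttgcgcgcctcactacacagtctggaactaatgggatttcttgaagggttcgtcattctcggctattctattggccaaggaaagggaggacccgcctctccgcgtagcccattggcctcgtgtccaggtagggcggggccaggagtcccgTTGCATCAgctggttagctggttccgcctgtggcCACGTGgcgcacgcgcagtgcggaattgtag
Gars (chr6:55037751-55038050, plus strand): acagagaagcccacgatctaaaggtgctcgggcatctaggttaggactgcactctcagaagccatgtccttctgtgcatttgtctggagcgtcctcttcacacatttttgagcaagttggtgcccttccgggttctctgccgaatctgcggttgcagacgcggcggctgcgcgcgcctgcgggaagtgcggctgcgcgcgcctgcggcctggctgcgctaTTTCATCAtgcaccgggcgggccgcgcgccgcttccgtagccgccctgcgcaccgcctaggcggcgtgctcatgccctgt
In Aars the 2 matches to TGATGNAA began 112 bases before and 9 bases after the start. They began 3 bases after it in Yars, 7 bases after it in Iars, 15 bases before it in Tars and 30 bases before it in Gars. All 5 genes were lower in the clones, as given below. So was every other cytosolic gene with a window except Qars, and the genes that rose (Wars, Rars and Hars) had no window. The falls therefore do not set the 5 genes apart, and a link to the motif was not tested. A match is a description of these letters and not a bound site.

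Cytosolic synthetase genes were mostly lower in the clones. By limma, Benjamini-Hochberg adjusted over 15179 genes at a threshold of 0.05, 15 of the 20 fell, 3 rose and 2 did not pass. Of all tested genes 38.3% fell and 35.2% rose, 73.5% in either direction. The shares were 38.5% and 34.8% with edgeR (73.3% in all) and with DESeq2 (73.2% in all). The median log2 fold change of the 20 was -0.75, against -0.07 over all tested genes. At least 2-fold falls were seen in 6 members and rises of that size in 0, against 25.7% and 22.4% of all tested genes. All clones were below all controls in 16 members and above them in 3, against 40.6% and 36.7% of all tested genes. Summed over the 20 genes, the scaled counts were 146444, 144486 and 146326 in the controls and 90264, 89997 and 89042 in the clones, so the clones held 61.6% of the control sum. These sums varied little within each group and did not overlap between groups. Values that follow are scaled counts, given by library (controls 1, 2, 3, then clones 5, 6, 7) or as mean ± SD (n = 3 in each group). Fold changes compare clones with controls on the log2(scaled count + 1) scale, ± SE.

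**Figure D1:**
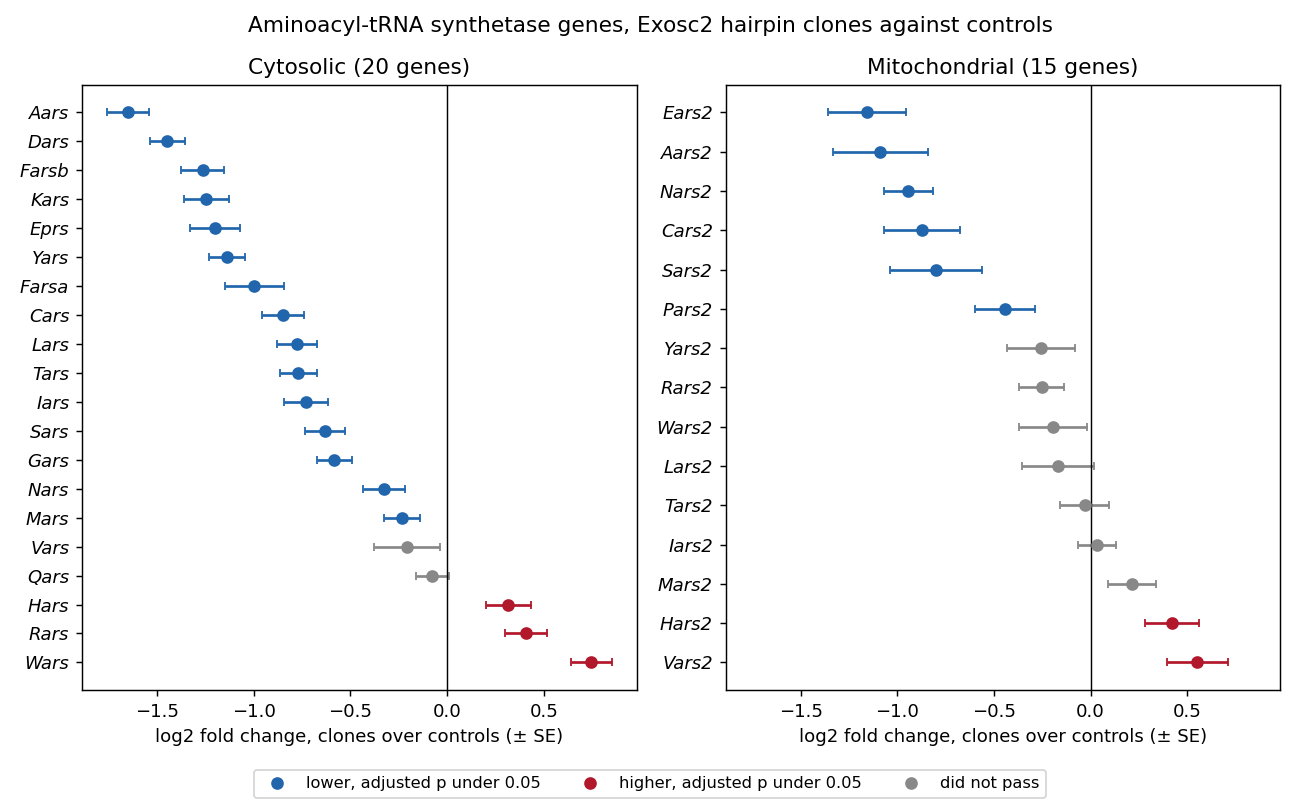
Log2 fold change (x axis, clones over controls, ± SE from limma) of each synthetase gene (y axis), with 20 cytosolic genes on the left and 15 mitochondrial genes on the right; blue points fell, red points rose and grey points did not pass. Aars (-1.65) and Ears2 (-1.16) lie lowest in their panels, Wars (0.75) and Vars2 (0.55) highest.

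Aars, which charges tRNA with alanine, had the largest fall. The gene (ENSMUSG00000031960.14) lies on the plus strand of chromosome 8, from 111033144 to 111057664 in GRCm38. It measured 11498, 13349 and 13955 in the controls and 3920, 4057 and 4353 in the clones. The clones thus stood at 31.8% of the control mean (log2 fold change -1.65 ± 0.11 SE, adjusted p = 1.71e-06). Of its 9282 annotated exon bases 1326 are shared with Exosc6 on the same strand, so its count is uncertain to that extent.

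Dars, the aspartate enzyme of the multisynthetase complex (chromosome 1, positions 128363707 to 128417368), measured 11135, 10269 and 10011 in controls and 3879, 3907 and 3726 in clones (log2 fold change -1.45 ± 0.09). Kars, the lysine enzyme, fell from 14960, 14894 and 11935 to 6040, 5969 and 5544 (-1.24 ± 0.12). Eprs, which joins glutamate and proline activities in a single protein, fell from 17155, 14203 and 19308 to 7834, 7171 and 6879 (-1.20 ± 0.13). In all of these the lowest control was well above the highest clone. Farsb, the beta subunit of the phenylalanine enzyme, measured 6842, 5576 and 5533 in controls and 2596, 2404 and 2436 in clones (-1.26 ± 0.11). Farsa, the alpha subunit that pairs with it in a tetramer, fell from 2999 ± 568 to 1488 ± 126, so both subunits fell.

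Yars, the tyrosine enzyme, fell from 3526 ± 122 to 1601 ± 71.7 (-1.14 ± 0.09). The remaining falls were smaller. Cars (cysteine) fell from 3405 ± 376 to 1880 ± 49.5, and Tars (threonine) from 5160 ± 356 to 3020 ± 78.3. Lars and Iars, the leucine and isoleucine enzymes of the complex, fell by 0.78 and 0.73 on the log2 scale. Sars (serine) and Gars (glycine) fell by 0.63 and 0.58. Nars (asparagine) and Mars (methionine) had the smallest falls that passed, -0.33 ± 0.11 and -0.23 ± 0.09. The Nars call was lost without clone 6 (-0.31) or clone 7 (-0.30), with chromosome medians subtracted (-0.18) and with eBayes without trend. The Mars call was lost without control 2 (-0.20), clone 5 (-0.21), clone 6 (-0.23) or clone 7 (-0.27), without a filter, with TMM scaling, with eBayes without trend and with edgeR. Mars shares exon bases with Ddit3 on the opposite strand, and the strand setting of the counting is not stated in these sources.

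Wars, Rars and Hars rose. Wars, the tryptophan enzyme, which is also known as an interferon-induced gene (ENSMUSG00000021266.16, chromosome 12, positions 108860030 to 108894174), measured 2262, 2627 and 2329 in the controls and 3708, 4178 and 4214 in the clones. All clones were above all controls (log2 fold change 0.75 ± 0.11, adjusted p = 2.1e-04), and the call held under all alternatives run. Rars, the arginine enzyme of the complex, measured 6349, 5172 and 5613 in controls and 8100, 7130 and 7449 in clones (0.41 ± 0.11). Its call was lost with chromosome medians subtracted (0.23). Hars, the histidine enzyme, measured 2653, 2610 and 2099 in controls and 3149, 3006 and 2960 in clones (0.32 ± 0.12), and its call was lost without clone 5 (0.29), clone 6 (0.32) or clone 7 (0.33), with quantile normalization (0.14) and with eBayes without trend. Without control 3, the lowest control, it passed at 0.21.

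Vars and Qars did not pass. Vars, the valine enzyme, measured 6176, 9236 and 6307 in controls and 5428, 6896 and 6234 in clones, with control 2 apart from the other controls and the groups overlapping. Qars, the glutamine enzyme of the complex, varied little, at 5216, 5211 and 5353 in controls and 4959, 5051 and 4949 in clones (log2 fold change -0.08 ± 0.09). Its groups did not overlap, but its change was small, and it passed only with quantile normalization (-0.24).

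Complex members and free cytosolic enzymes were counted apart, with no test of the difference. For each count below, 38.3% of all tested genes fell and 35.2% rose. Of 8 enzymes of the complex 6 fell and 1 rose (median -0.75), and of 12 outside it 9 fell and 2 rose (median -0.70). By class, 9 of 10 cytosolic class II enzymes fell and 1 rose (median -0.88), and 5 of 9 class I enzymes fell and 2 rose (median -0.23). Eprs holds a domain of each class and was left out of that split. Of the class II members 5 lie on chromosomes 1 and 8, whose medians over all tested genes were -0.60 and -0.49, and 0 of the class I members do. With chromosome medians subtracted the class medians were -0.72 and -0.42. Class II then had 8 falls and 1 rise and class I 5 falls and 1 rise, against 36.7% and 36.0% of all tested genes. The difference between the classes was not tested.

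**Figure D2:**
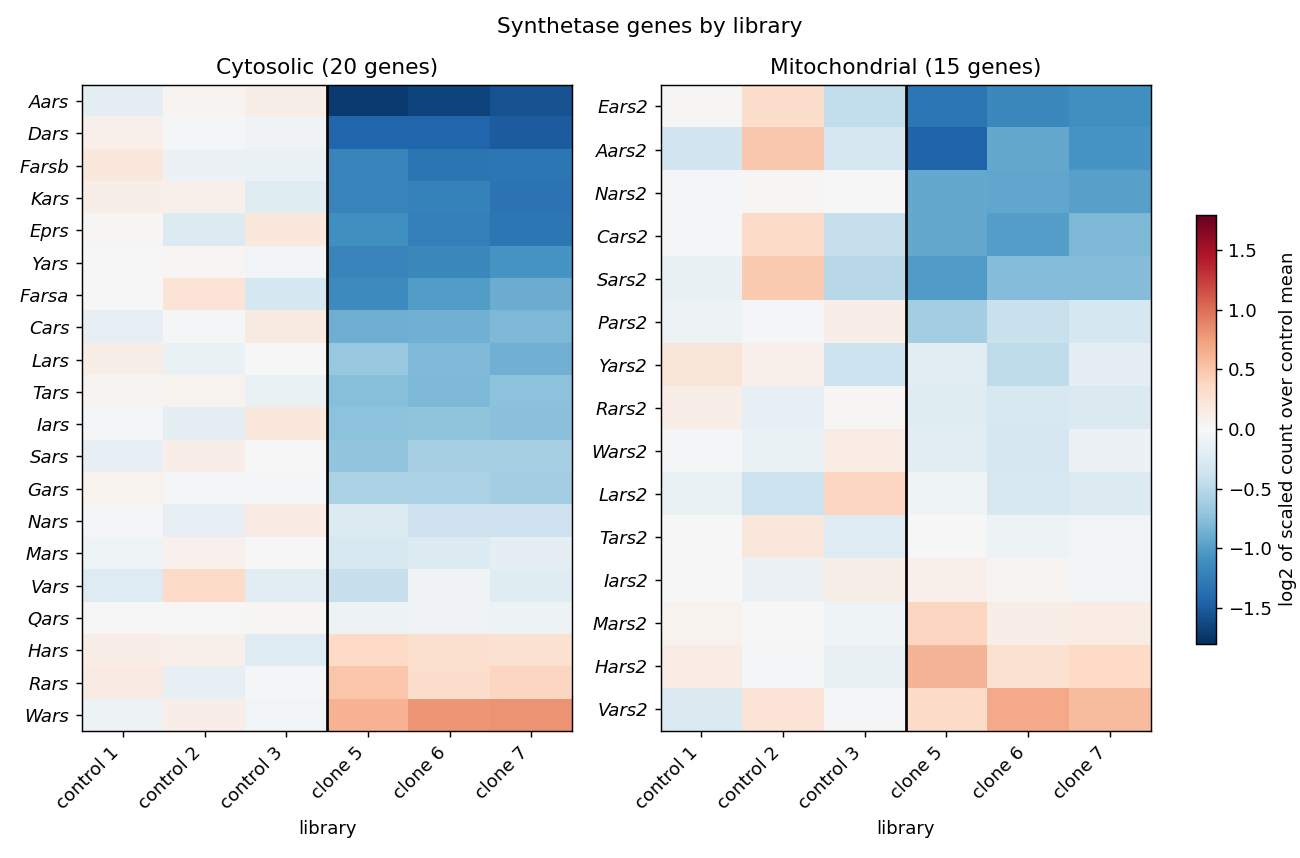
Each synthetase gene (y axis) in each library (x axis), coloured by the log2 of its scaled count over the control mean, with blue below and red above that mean. The 3 clones resemble each other for most cytosolic genes, while Ears2, Cars2 and Sars2 are highest in control 2 and lowest in control 3 among the controls.

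A smaller share of mitochondrial synthetase genes had a called fall. Falls were called for 7 of the 16, rises for 2 and neither for 7, against the same background of 38.3% and 35.2%, so the share that fell (43.8%) lay near that of all genes. The median log2 fold change was -0.26. By sign alone 12 of the 16 were below 0, against 17 of the 20 cytosolic genes and 51.9% of all tested genes. Calls also depend on precision, which differed between genes. The cytosolic Mars passed at -0.23 (SE 0.09), while Rars2 at -0.25 (SE 0.12) and Yars2 at -0.26 (SE 0.18) did not. At least 2-fold falls were seen in 3 members and rises of that size in none, against 25.7% and 22.4% of all tested genes. Groups were apart for 8 lower and 3 higher members, against 40.6% and 36.7% of all tested genes. With chromosome medians subtracted 5 fell and 4 rose, and with quantile normalization 9 fell and none rose, so the split between the directions depends on the scaling. Whether the mitochondrial set differs from the cytosolic set was not tested.

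Nars2, the mitochondrial asparagine enzyme (chromosome 7, positions 96951505 to 97064758), measured 543, 557 and 549 in controls and 291, 287 and 279 in clones (-0.94 ± 0.13, adjusted p = 1.53e-04). Its groups lay far apart, and its coefficient of variation among controls (1.33%) was the lowest of all 36 genes.

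Ears2, Aars2, Cars2 and Sars2 fell from controls that differed widely among themselves. Ears2, which loads glutamate, measured 634, 774 and 460 in controls and 252, 278 and 290 in clones (-1.16 ± 0.20). Aars2 (alanine) measured 511, 907 and 523 in controls and 239, 341 and 309 in clones (-1.09 ± 0.25). Cars2 (cysteine) measured 585, 766 and 453 in controls and 317, 303 and 342 in clones (-0.87 ± 0.20). In each of the 4 genes control 2 was the highest, and in Ears2, Cars2 and Sars2 control 3 was the lowest. Sars2 (serine) fell by 0.80 on the log2 scale (SE 0.24). Groups did not overlap in any of the 4, and their calls held without each library in turn, but Cars2 was not called with chromosome medians subtracted (-0.39). Cars2 shares 422 exon bases with Naxd on the opposite strand.

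Pars2, the proline enzyme, was at 367 ± 27.7 in controls and 270 ± 28.6 in clones (-0.44 ± 0.15). This call was lost without control 3 (-0.38), clone 5 (-0.35) or clone 6 (-0.47), and with chromosome medians subtracted (-0.16).

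Vars2 and Hars2 rose. Vars2, the mitochondrial valine enzyme, measured 710, 1006 and 830 in controls and 1081, 1368 and 1263 in clones (0.55 ± 0.16, adjusted p = 0.0112). Its groups lay apart, but the call was lost without clone 6 (0.48) and with quantile normalization (0.32). Hars2, for histidine, measured 668, 599 and 554 in controls and 927, 736 and 780 in clones (0.42 ± 0.14), and its call was lost without clone 5 (0.32) or clone 7 (0.45) and with quantile normalization (0.22). Hars and Hars2 lie head to head on chromosome 18 and share 195 annotated exon bases on opposite strands, so reads of this stretch cannot be assigned without strand.

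The other 7 mitochondrial genes did not pass. Iars2 (isoleucine) measured 4268, 3944 and 4562 in controls and 4520, 4418 and 4118 in clones (log2 fold change 0.03 ± 0.10), and Tars2 (threonine) 1587 ± 243 and 1541 ± 49.3. Yars2, Rars2 and Wars2, for tyrosine, arginine and tryptophan, had log2 fold changes of -0.26, -0.25 and -0.19, and Mars2 (methionine) had 0.22. Yars2 passed without control 3 (-0.44) and with quantile normalization (-0.47), and Rars2 passed without control 2 (-0.33) and with quantile normalization (-0.48). Lars2, for leucine, measured 18719, 15613 and 26612 in controls and 19299, 16582 and 17106 in clones, with control 3 far above the other libraries. It alone held 55.9% of the summed control counts of the mitochondrial set. Without Lars2 the other 15 genes summed to 16388, 16828 and 14785 in controls and 13418, 13077 and 12996 in clones, or 82.3% of the control mean.

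Per kilobase of annotated exon, cytosolic genes stood well above mitochondrial genes. In the controls the cytosolic genes ranged from 517 scaled counts per kilobase (Cars) to 3564 (Gars), with a median of 1319. The mitochondrial genes ranged from 27.5 (Wars2) to 1832 (Lars2), with a median of 146. Of the 16 mitochondrial genes 15 were below every cytosolic gene, and Lars2 was the exception. Dividing the set medians in each library, the cytosolic level was 8.94, 7.33 and 10.2 times the mitochondrial level in the controls and 6.84, 7.11 and 6.69 times in the clones. The clone ratios were all lower than those of the controls by this length. By the longest transcript the groups nearly met, at 7.12 for the lowest control and 7.08 for the highest clone, and the median over the pairs went from 7.39 in controls to 6.48 in clones by merged exons but from 7.15 to 7.79 by the longest transcript, so its direction depends on the length used.

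**Figure D3:**
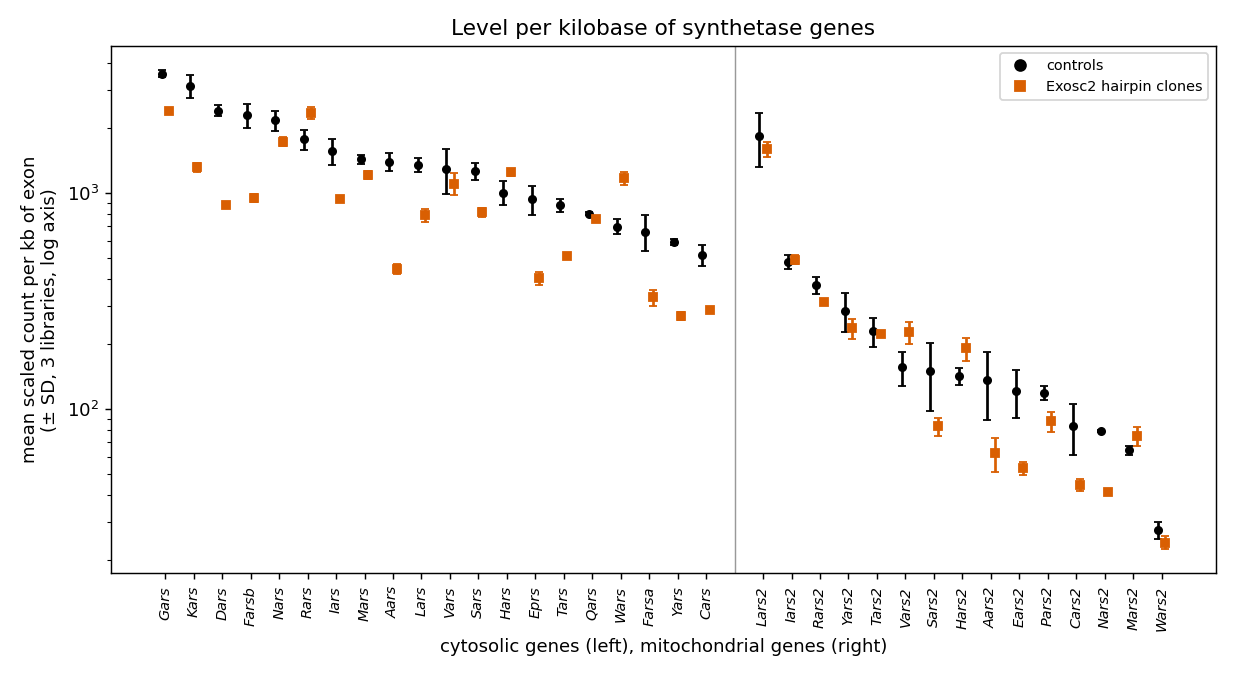
Mean scaled count per kilobase of annotated exon (y axis, log scale, ± SD of 3 libraries) for each synthetase gene (x axis), with controls as black circles and clones as orange squares. Cytosolic genes on the left start at 517 in controls, and the mitochondrial genes on the right lie below that except Lars2 at 1832.

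Comparing enzymes for the same amino acid gave 16 pairs, with Eprs set against both Ears2 and Pars2. Both genes fell in 7 pairs, the cytosolic gene alone fell in 5, and no pair had calls in opposite directions. In the library counts, the ratio of the cytosolic to the mitochondrial gene lay below every control in all clones for 7 pairs, above every control for 3, and overlapped for 6. For comparison, groups did not overlap for 77.3% of tested genes taken singly. The median difference of the log2 fold changes (cytosolic minus mitochondrial) was -0.28, and -0.19 with chromosome medians subtracted. No test was run over the pairs.

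Tyrosine and isoleucine showed the pattern of the 7 lower ratios. Yars counts were 3.40, 3.79 and 4.92 times those of Yars2 in the controls and 1.98, 2.41 and 2.12 times in the clones. For Iars over Iars2 the ratios were 1.87, 1.84 and 2.07 in controls and 1.09, 1.12 and 1.19 in clones. Vars over Vars2 went from 8.70, 9.19 and 7.60 to 5.02, 5.04 and 4.94, although Vars itself did not pass. Within each group these ratios were closer together than the Vars counts themselves, in which control 2 stood apart.

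The reverse was seen for tryptophan, arginine and asparagine. Wars counts were 14.0, 17.5 and 13.03 times those of Wars2 in controls and 25.9, 31.5 and 27.7 times in clones. For Rars over Rars2 the ratios were 5.63, 5.54 and 5.33 in controls and 9.10, 8.40 and 8.62 in clones. Nars over Nars2 went from 17.2, 15.3 and 19.1 to 27.3, 25.5 and 26.2, where both genes were lower in the clones. Small differences between the log2 fold changes were those of Cars with Cars2 (0.02), Eprs with Ears2 (-0.05) and Hars with Hars2 (-0.10).

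**Figure D4:**
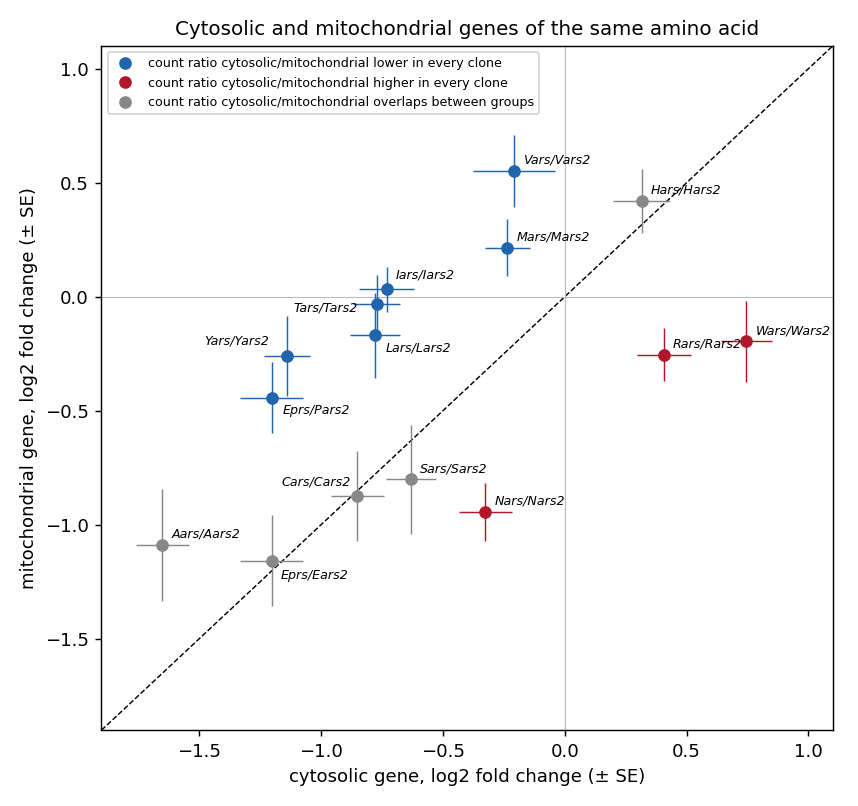
Log2 fold change of the cytosolic gene (x axis) against that of the mitochondrial gene for the same amino acid (y axis), ± SE, with the dashed line marking equal change; colours show whether the count ratio of the genes was lower in every clone (blue, 7 pairs), higher in every clone (red, 3 pairs) or overlapped (grey, 5 pairs shown). Points above the line, such as Yars with Yars2, had the lower log2 fold change in the cytosolic gene, and Wars with Wars2 lies farthest below it.

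Among cytosolic members, chromosome location moved with the fall. Chromosomes 1 and 8 had median log2 fold changes of -0.60 and -0.49 over 930 and 800 tested genes. Chromosome 14, which holds no member, had -0.57 over 491. All 6 cytosolic members on chromosomes 1 and 8 (Dars, Eprs, Farsb, Aars, Farsa and Kars) fell, with a median of -1.25. Over all chromosomes 38.3% of tested genes fell and 35.2% rose, and these shares were not counted by chromosome. Of the 14 cytosolic members on other chromosomes 9 fell and 3 rose, with a median of -0.45. Among mitochondrial members on chromosomes 1 and 8, Cars2 fell, and Iars2 and Mars2 did not pass. These chromosomes were singled out after their medians were seen.

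With chromosome medians subtracted, 14 cytosolic members still fell and 2 rose, with a median of -0.57, where 36.7% of all tested genes fell and 36.0% rose (72.7% in all). Dars was then at -0.86, Kars at -0.77, Farsb at -0.68, Eprs at -0.62 and Farsa at -0.52. Aars was at -1.17, Tars at -1.03 and Gars at -0.97, the latter pair on chromosomes 15 and 6 with medians above 0. Iars2 and Mars2, which lie on chromosome 1, then passed as higher (0.62 and 0.80). Eprs and Iars2 are neighbours on chromosome 1, with 33647 bases between the annotated genes, and had log2 fold changes of -1.20 and 0.03. Iars2 shares 2034 exon bases with Rab3gap2 on the opposite strand, so its count is uncertain without strand.

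**Figure D5:**
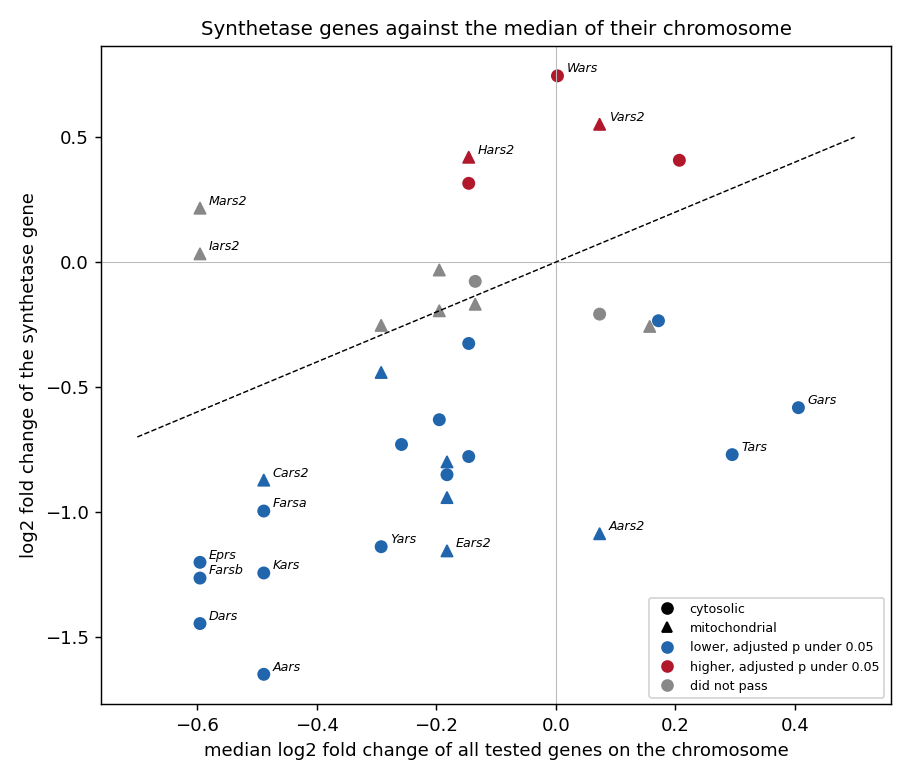
Log2 fold change of each synthetase gene (y axis) against the median log2 fold change of all tested genes on its chromosome (x axis), with circles for cytosolic and triangles for mitochondrial genes, blue for falls, red for rises and grey for genes that did not pass; the dashed line marks equality. The leftmost columns are chromosomes 1 (-0.60) and 8 (-0.49), where Iars2 and Mars2 are above the line and the other 7 drawn genes lie under it.

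Genes that work with the synthetases showed fewer changes. Among 19 partner genes there were 5 falls and 2 rises, and 12 missed the threshold (median -0.11), against 38.3% and 35.2% of all genes. Pstk, Tarsl2 and Qrsl1 had the largest called changes, and the others named were chosen after their values were seen. Pstk, the kinase that prepares seryl-tRNA for conversion to selenocysteine, fell from 484, 457 and 478 to 205, 226 and 196 (-1.18 ± 0.14). Tarsl2, a further cytosolic threonine enzyme that the symbol rule does not take, fell from 450 ± 37.7 to 278 ± 11.5 (-0.69 ± 0.14). Qrsl1, the catalytic subunit of the mitochondrial amidotransferase that turns glutamate on tRNA into glutamine, fell from 518 ± 52.8 to 337 ± 44.3 (-0.62 ± 0.16), while its partner subunits Gatb and Gatc did not pass (-0.01 and 0.32). Of the scaffold proteins of the complex, Aimp1 fell (-0.42 ± 0.11), and Aimp2 and Eef1e1 had -0.31 and -0.24 without passing. Dtd1, a deacylase that removes D-amino acids from tRNA, fell by 0.57. The members that rose were Mtfmt, which formylates the mitochondrial initiator tRNA (0.45 ± 0.16), and Trnt1, which adds the CCA end (0.31 ± 0.12). With chromosome medians subtracted Trnt1 was at -0.08 and Aimp1 at -0.24, and neither passed, while Mtfmt passed at 0.59. By that setting 6 partner genes fell and 1 rose, against 36.7% and 36.0% of all tested genes. The count of rises was 4 without control 1 and 0 without control 2, control 3 or any clone, and the count of falls was 8 without control 3.

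Elongation factors, which bring the charged tRNA to the ribosome and move it on, mostly did not pass. Falls were called for 2 of 9 and rises for none (median -0.23), against 38.3% and 35.2% of all tested genes. Eef1b2, a nucleotide exchange subunit that lies on chromosome 1, fell from 35967, 36848 and 34839 to 18787, 20987 and 18727 (-0.88 ± 0.10). Gfm2, which acts in recycling mitochondrial ribosomes, fell from 2272, 2184 and 1918 to 925, 933 and 840 (-1.24 ± 0.11). Eef1a1 and Tufm were chosen after their values were seen. Eef1a1, which carries aminoacyl-tRNA in the cytosol, had -0.18 ± 0.14, and Tufm, its mitochondrial counterpart, -0.06 ± 0.19. The number that fell was 6 without control 3, 5 with quantile normalization and 4 with chromosome medians subtracted.

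Genes of the ATF4 pathway fell and rose in shares near those of all tested genes. In a list of 34 there were 15 falls (44.1%) and 11 rises (32.4%), against 38.3% and 35.2% (median -0.03). Among the 4 kinases that act on eIF2 upstream of ATF4, Eif2ak2 (1.37) and Eif2ak4 (1.12) rose and none fell. Of 6 transcription factors Atf5 (1.62) and Cebpb (2.68) rose, and Atf4, Atf3 (-3.21) and Ddit3 (-1.60) fell. Of 24 targets 12 fell (50%) and 7 rose (29.2%). The synthetases long listed as ATF4 targets fell in 11 of 12 cases (91.7%), and Wars rose (median -0.75). Of the 8 other cytosolic synthetases, 4 fell (50%) and 2 rose (median -0.60), and the difference between these sets was not tested.

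Targets with the largest changes went in opposite directions. Slc7a11, the cystine transporter, rose from 36.9, 29.2 and 49.2 to 20175, 19076 and 15665 scaled counts (8.88 ± 0.19), and Nupr1, a stress-induced nuclear protein, from 495 ± 117 to 10335 ± 1517 (4.39 ± 0.18). Phgdh, the first enzyme of serine synthesis, fell from 2506, 3680 and 2066 to 87.5, 87.3 and 111 (-4.80 ± 0.22). The kinases and factors named, and Asns, were chosen after their values were seen. Atf4 itself measured 7633, 7595 and 5454 in controls and 5268, 5094 and 5447 in clones (-0.37 ± 0.14, adjusted p = 0.0391), with control 3 nearly level with clone 7. Asns, which makes asparagine, fell from 5626, 5150 and 7708 to 1215, 1179 and 1175 (-2.35 ± 0.15).

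Libraries within a group agreed more closely among the clones than among the controls. The median coefficient of variation of cytosolic members was 10.2% among controls and 4.41% among clones, and it was lower among clones for 19 of 20 genes. For mitochondrial members the medians were 15.9% and 7.65%, and 12 of 16 genes varied less among clones. The lowest read count in any library was 1365 for a cytosolic member (Farsa) and 129 for a mitochondrial member (Wars2).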

How the data were processed

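Libraries were prepared with the TruSeq Stranded mRNA kit after poly(A) selection (500 ng RNA, 8 PCR cycles), per the labels' protocols. Of tools, the submitters' processing notes list cutadapt (1.6), the aligner STAR (2.5.0a), the counter HTSeq (0.5.3) and DESeq (1.22.1), with build mm10 and no settings; strand setting and annotation are not given in the sources used here. The deposited values are a signal: read counts per gene that the authors scaled with DESeq, per the submitters' processing notes and the table's name. In all 6 libraries 100% of values were whole multiples of a step within 0.001 read, so whole reads were recovered. GENCODE M21 (GRCm38) gave positions and exon lengths, and RefSeq (GRCm38.p6) gave promoter windows.

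Groups came from sample titles. Members and gene lists were chosen with earlier results of these data known. The main test was limma 3.58.1 (moderated, with a mean-variance trend) on log2(scaled count + 1), for genes averaging 10 or more, Benjamini-Hochberg adjusted over 15179 genes at 0.05. One member counted in the totals is not reported here by itself, nor drawn in the figures. Other members could be named, with values by library for the 5 largest called changes of each set and the largest against the commoner direction, and the 3 largest called changes of each further list. No test was run over lists. The fit was tested on simulated data in which few genes changed, whereas 73.5% were called here, so that trial does not bear on these calls. Other settings tried were a pseudocount of 0.5 or 5, all genes unfiltered, a minimum mean of 50, scaling by TMM or by quantiles, eBayes without trend or robust, count tests (edgeR 4.0.16, DESeq2 1.42.0) with the recovered reads, centring by chromosome (each library's median shift against control means is taken off its genes, chromosome by chromosome), and dropping single libraries. R 4.3.3 and Python 3.11.15 were used.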

Additional observations from a re-analysis of the deposited data

How the results depend on the processing

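Of 27 synthetase genes that passed, 19 kept the call under all 17 alternatives and 8 lost it under at least 1 (Cars2, Hars, Hars2, Mars, Nars, Pars2, Rars and Vars2). Of 9 that did not pass, 5 gained a call under at least 1 (Iars2, Mars2, Qars, Rars2 and Yars2), and no called gene changed sign. Cytosolic genes that fell numbered 13 to 16 over all alternatives, and those that rose 2 or 3. Without Gars and Kars 13 fell and 3 rose. With quantile normalization no mitochondrial gene rose (0), 9 partner genes fell and 1 rose, and 5 elongation genes fell. With chromosome centring 4 mitochondrial genes and 1 partner gene rose, and 4 elongation genes fell. Leaving out each library gave 1 to 2 mitochondrial rises, 0 to 4 partner rises, 4 to 8 partner falls and 2 to 6 elongation falls. The cause was not tested. The median log2 fold change of all genes stayed between -0.14 and 0.02. The longest transcript in place of merged exons gave a ratio of set medians of 8.84 in place of 8.81 in controls and of 7.04 in place of 6.88 in clones. No paired analysis was possible because controls are numbered 1 to 3 and clones 5 to 7. Depth was lowest for Wars2, with 129 reads in its lowest library.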
